A study of Equus caballus with 4 samples.

Results

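The TRIM family genes were examined in equine satellite cells (ESC), stem cells of horse skeletal muscle, on day 3 of differentiation. The members were the probes whose gene symbol in the array files is TRIM followed by a number, with *trim63* left out, and they comprised 39 genes with 66 probes among 24998 gene names with 43603 probes. The HMB group was incubated with 50 µM HMB, a metabolite of the amino acid leucine, for 24 h, with 3 mM H2O2 added for the last 1 h. The control group was exposed to H2O2 in the absence of HMB, hence every sample had been exposed to H2O2. On each of 4 two-color arrays, all on 1 slide, cRNA of the HMB group was labeled with Cy5 and cRNA of the control group with Cy3. The dyes were not swapped, so treatment and dye cannot be told apart. The cells came from the *m. semitendinosus* of stallions 6 months old. The methods of the study selected 1 culture by its viability and fusion, so the 4 arrays need not stand for 4 horses. In the labels, all 4 controls carry 1 and the same replicate number, and if the control was 1 RNA, its own spread is missing from the errors.

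Most TRIM proteins are E3 ubiquitin ligases built from a RING finger, B-box zinc fingers and a coiled coil, with a C-terminal part that differs between members and often binds the target. Many members with a PRY-SPRY domain at this end are induced by interferon, and they restrict viruses or tune the signaling of cytosolic nucleic acid sensors. A separate branch, the MuRF proteins, sits on the sarcomere and on microtubules of striated muscle, and *trim32* and *trim72* also have known roles in muscle. A further branch with a bromodomain acts on chromatin.

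The probes of the antiviral and muscle genes are shown first, since the values below rest mostly on 1 probe of 60 bases per gene. Coordinates are those of the files, on the EquCab1 build, where Un stands for sequence not placed on a chromosome. The files give no exon or coding annotation of the probes, and the probes shown are those with a reading frame free of stop codons. Capitals mark the bases that a pair of probes of 1 gene has in common.
*trim34* (NM_001205193, chr7:62282038-62282097, plus strand): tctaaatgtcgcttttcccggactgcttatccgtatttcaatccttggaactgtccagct
*trim21*, first probe (ENSECAT00000006616, chr7:60048676-60048735, minus strand): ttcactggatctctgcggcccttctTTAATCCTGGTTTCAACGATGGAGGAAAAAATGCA
*trim21*, second probe (chr7:60048651-60048710, minus strand): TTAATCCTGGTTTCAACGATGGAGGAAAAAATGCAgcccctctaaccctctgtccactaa
*trim69* (ENSECAT00000019602, chr1:141721167-141721226, minus strand): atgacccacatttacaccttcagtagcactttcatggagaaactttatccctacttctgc
*trim26* (ENSECAT00000017994, chrUn:94306452-94306751, plus strand): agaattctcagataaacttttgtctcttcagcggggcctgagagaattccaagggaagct
*trim56* (NM_001257087, chrUn:173022654-173022713, plus strand): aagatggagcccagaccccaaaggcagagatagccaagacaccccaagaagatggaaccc
*trim38* (ENSECAT00000026293, chr20:23584112-23584171, plus strand): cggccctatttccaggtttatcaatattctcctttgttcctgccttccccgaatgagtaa
*trim54* (ENSECAT00000002185, chr15:65586928-65586987, minus strand): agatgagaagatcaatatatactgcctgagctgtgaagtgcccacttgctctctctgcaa
*trim55* (ENSECAT00000015229, chr9:19003488-19003547, minus strand): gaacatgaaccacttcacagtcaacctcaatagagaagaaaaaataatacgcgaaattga
The *trim26* probe spans 300 bases of the genome, so it lies across an exon junction, whereas the other probes above span 60 bases each. The *trim21* probes share 35 bases and are not independent measurements.

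The values are log2 ratios of the HMB group over the control group, and a positive value means higher expression with HMB. A gene was tested if, on each of the 4 arrays, at least 1 channel of a probe was well above background, and the ratio was averaged over such probes of the gene. It was called where limma's adjusted p did not exceed 0.05 and the FC reached 1.3, which is 0.38 on the log2 scale. Of the 39 members, 24 genes with 34 probes passed the filter. Among them, 7 genes were called higher and 5 lower with HMB, while 12 were not called. Over all 14097 genes tested, 12.4% were called higher and 16.2% lower. The median log2 ratio was −0.11 over the tested members and −0.06 over all genes tested, and 20 of the 34 member probes were called, 12 higher and 8 lower, against 12.1% and 16.3% of all probes.

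The tested antiviral TRIM genes were higher with HMB. All 6 antiviral genes that passed the filter were called higher, and their median log2 ratio was 1.13 (range 0.57 to 3.53), with 1.12, 0.75, 1.39 and 1.07 on arrays 1 to 4. The list held 11 genes on the arrays, and the other 5 were too dim to be tested. Since *trim34* and *trim69* passed mainly through the HMB channel, the count is not evidence on its own. With both channels required to be well above background, 4 antiviral genes remained in the test, all 4 were called higher, and the median was 0.86. Over all genes in that test, 11.8% were called higher and 14.1% lower. Without any filter, 5 of the 11 were called higher and *trim15* lower, and the median was 0.57. Over all genes without the filter, 6.64% were called higher and 10.3% lower.

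The gene with the highest ratio was *trim34*, a close relative of the retrovirus restriction factor *trim5*. Its log2 ratio was 3.70, 3.64, 3.47 and 3.31 on arrays 1 to 4. The normalized signal of the control channel was 10.3, 20.1, 20.2 and 10.6 (arbitrary units), which was not well above background on any array. In the HMB channel, the signal was 134, 250.05, 223 and 105, well above background on all 4 arrays. The measured means were 7.39 and 3.86 on the log2 scale in the HMB and control channels, but the ratio rests on a control below background. Against the lowest control signal well above background, 4.38 on this scale, *trim34* was 8.03-fold higher with HMB. This is not a strict lower limit, since a dim *trim69* probe reached a control signal of 33.2 without being well above background. The fold was also smaller under other background settings, as given below. For the measured ratio of the probe, 3.53, the limma adjusted p was 2.15e-06 (n = 4). Cross-hybridization of this probe with close paralogs was not examined.

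*trim21* encodes the cytosolic receptor for antibodies, which sends antibody-coated viruses to the proteasome. Its first probe had log2 ratios of 1.87, 1.71, 1.85 and 1.57 on arrays 1 to 4. The second probe gave 1.83, 1.40, 1.65 and 1.17. Both probes were lowest on array 4, and all 8 ratios lay above 1. The mean over both probes was 1.63 ± 0.21 (SD, n = 4; limma adjusted p = 6.62e-05). In the control channel, the signal of the second probe was between 151 and 184, and in the HMB channel, between 414 and 563.

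*trim69*, which restricts RNA viruses, had log2 ratios of 1.42, 0.80, 1.88 and 0.77. The mean was 1.22 ± 0.54 (SD, n = 4; FC 2.33, limma adjusted p = 0.00357). Arrays 1 and 3 were higher than arrays 2 and 4, and the control channel was well above background on 1 array. An adjacent probe of this gene was well above background in the HMB channel on 3 arrays and in the control channel on 0, and it was not tested. Its ratios of 1.71, 0.99, 1.59 and 0.87 had the same pattern over the arrays.

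For *trim26*, an E3 ligase encoded in the major histocompatibility complex of mammals, the log2 ratios were 0.82, 0.71, 1.03 and 1.59. The mean was 1.04 ± 0.39 (SD, n = 4; FC 2.05, limma adjusted p = 0.00227). Array 4 had the highest ratio and the lowest control signal, 34.3, compared with 68.5 to 105 on the other arrays. The HMB signals were 103 to 171, so they overlapped those of the control channel. The log2 ratios of *trim56*, a ligase that acts in the induction of interferon by nucleic acids, were 0.66, 0.61, 0.81 and 0.67 (mean 0.69 ± 0.08, SD, n = 4; FC 1.61, limma adjusted p = 4.88e-04). The signals of the tested *trim56* probe overlapped, with 95.4 to 159 in the control channel and 152 to 278 in the HMB channel. Its other probe was not well above background on any array.

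*trim38*, which dampens Toll-like receptor and TNF signaling, had log2 ratios of 0.59, 0.47, 0.62 and 0.61. The mean of 0.57 ± 0.07 (SD, n = 4; FC 1.49, limma adjusted p = 8.96e-04) was the smallest among the called antiviral genes. The signal was 1116 to 1380 in the control channel and 1686 to 2119 in the HMB channel.

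**Figure D1:**
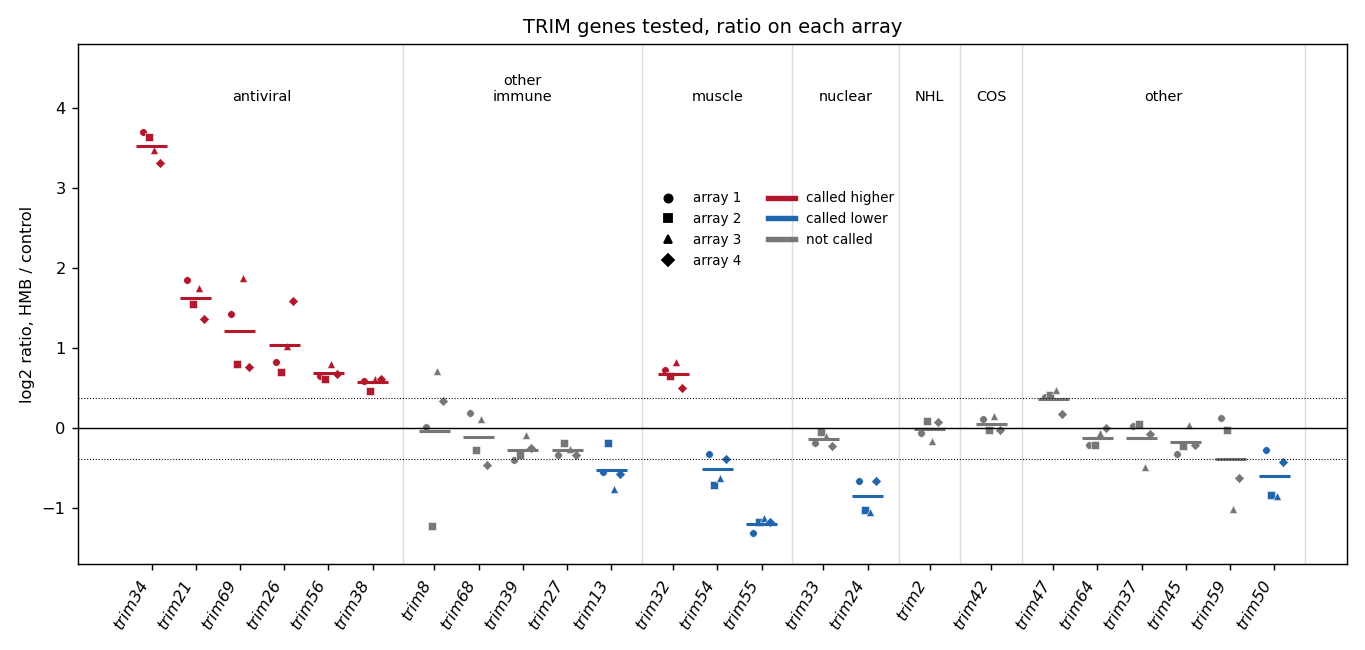
Log2 ratio of HMB over control (y axis) on each of the 4 arrays for the 24 TRIM genes tested (x axis), grouped by role, with the mean as a bar, the array as the symbol and the call as the color. Dotted lines mark an FC of 1.3. All 6 antiviral genes lie above 0 on every array, from a mean of 0.57 to 3.53, and *trim55* and *trim54* lie below 0 on every array.

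**Figure D2:**
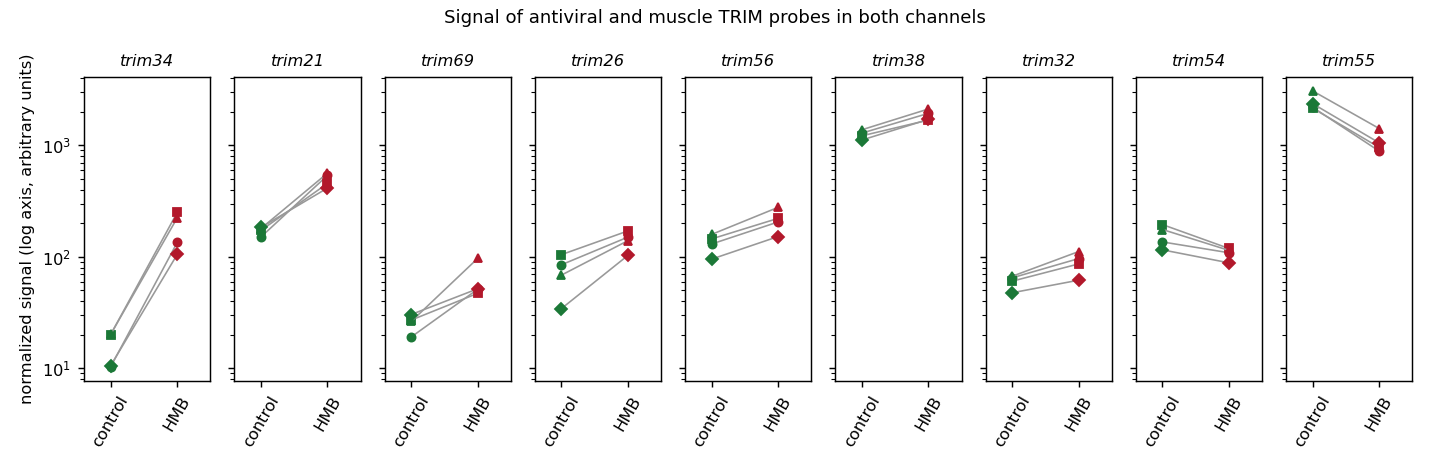
Normalized signal (log y axis, arbitrary units) of the brightest tested probe of each antiviral and muscle gene in the control and HMB channels, with a line and a symbol per array. The control signals of *trim34* are between 10.3 and 20.2, not well above background, while its HMB signals are between 105 and 250.05, and the signals of *trim54* and *trim55* drop from control to HMB on all 4 arrays.

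The sizes of these changes depended on the processing. With background correction by normexp, the log2 ratio was 1.02 for *trim34*, 1.06 for *trim21*, 0.39 for *trim26* and 0.25 for *trim69*, of which *trim69* was not called. *trim69* was also not called with the methods' t-test, *trim38* was not called with limma's treat, and *trim56* was not called without the filter on dim probes, where its second probe entered the mean.

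The antiviral genes that were not tested were *trim14*, *trim15*, *trim23*, *trim25* and *trim65*. *trim25* encodes the ligase that activates the RNA sensor *ddx58*, and its probe was well above background on 1 array. Its log2 ratios were 0.10, 0.58, 0.02 and −0.73, with both signs. Another 2 probes carry *trim25* in the probe description alone. The brighter of them, well above background on 1 HMB array, had ratios of 2.75, 2.03, 2.55 and 2.23. The other was not well above background on any array and had ratios of 1.51, 0.90, 2.17 and 0. None of the 3 probes passed the filter, so *trim25* was not tested. *trim23* had ratios between 0.23 and 0.88 and was well above background on 1 array, as was *trim14*, whose ratios had both signs. The probe of *trim65* was not well above background on any array, and its ratios were −0.24, −1.03, −0.21 and −1.37. *trim15* had 5 probes, and 2 of them were well above background on 2 arrays each, with ratios from −2.21 to −1.25 for one and from −0.74 to 0.02 for the other.

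The lists of partners and markers were chosen with earlier results of these data known, so their counts describe the lists alone. Beside each of them stand the shares over all 14097 genes tested, 12.4% called higher and 16.2% lower. Of 13 partners of the antiviral proteins, 11 were tested, 7 were called higher and 1 lower, and the median log2 ratio was 0.67. The RNA sensors *ddx58* and *ifih1* rose by 3.67 ± 0.28 and 5.27 ± 0.47 (SD over 4 arrays). *irf7*, a transcription factor of interferon genes, had 3.45 ± 0.23, and *isg15*, the ubiquitin-like modifier, had 3.13 ± 0.21. The kinases *ikbke* and *tbk1* had 1.18 ± 0.25 and 0.67 ± 0.11, and the adaptor *ticam1* had 0.46 ± 0.14. The limma adjusted p of these 7 genes was between 3.75e-06 and 0.00431. *vcp*, the ATPase that works with *trim21* in unfolding targets, fell by 0.61 (SD 0.14, limma adjusted p = 0.00146). The adaptors *mavs* (−0.12), *tmem173* (0.28) and *tab2* (−0.07) were not called.

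The muscle TRIM genes did not move in 1 direction. *trim54* and *trim55* fell, *trim32* rose, and *trim72* could not be tested. The median of the 3 tested genes was −0.51. *trim55* encodes MuRF2, which binds titin and microtubules in the sarcomere. Its log2 ratio was −1.31, −1.17, −1.12 and −1.17 on arrays 1 to 4, the closest agreement among the called lower genes. The mean was −1.19 ± 0.08 (SD, n = 4; FC 2.28 toward lower expression, limma adjusted p = 5.27e-05). The signal was 2156 to 3077 in the control channel and 887 to 1416 in the HMB channel.

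*trim54* encodes MuRF3, which stabilizes microtubules in muscle cells. Its log2 ratios were −0.32, −0.71, −0.62 and −0.39, and the mean was −0.51 ± 0.19 (SD, n = 4; FC 1.43 toward lower expression, limma adjusted p = 0.00464). The ratio was below 0 on all 4 arrays, but the signals of the groups overlapped, with 115 to 195 in the control channel and 88.3 to 119 in the HMB channel. The call was lost with treat, with normexp (−0.23) and without background correction (−0.28). *trim72* encodes a protein of membrane repair, and its probe was not well above background on any array in either channel.

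In contrast, *trim32* was called higher. It encodes an NHL repeat ligase of actin and desmin that is mutated in a limb-girdle muscular dystrophy. The log2 ratio was 0.73, 0.65, 0.83 and 0.50 on arrays 1 to 4, and the mean was 0.68 ± 0.14 (SD, n = 4; FC 1.60, limma adjusted p = 9.34e-04). Its 5 probes start within 4 bases of each other and share 56 bases, so they are close to 1 measurement made 5 times. All 5 were called higher, with means from 0.55 to 0.92. The signals of the brightest of them overlapped, with 47.6 to 66.9 in the control channel and 61.7 to 111 in the HMB channel. The gene was not called with normexp (0.19) or without background correction (0.31).

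The fall of *trim54* and *trim55* went along with that of myogenic markers. Of 10 such markers, 7 were tested, each of the 7 was well above background in each channel on 4 of 4 arrays, and 5 were called lower, with a median of −1.10. These were *myf5* (−1.63), *myh3* (−1.38), *des* (−1.22), *acta1* (−1.10) and *ckm* (−0.93). *myod1* (0.10) and *myog* (0.03) were not called. The summed signal of the tested myogenic probes was 167889 to 189122 in the control channel and 64234 to 101799 in the HMB channel, lower on all 4 arrays. Fewer cells of a type and less RNA per cell cannot be told apart in these cultures. Of 6 fibroblast markers, 4 were tested and 3 were called higher, namely *pdgfra* (1.82), *dcn* (0.89) and *thy1* (0.76), while *col1a2* had a ratio of −0.18 and *tcf21* was well above background in the HMB channel on 3 arrays and was not tested. The summed signal of the fibroblast probes was 840379 to 1032680 in the control channel and 707828 to 1167730 in the HMB channel, lower with HMB on 3 arrays. The part of the cell composition in the TRIM values was not tested.

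Among 5 leukocyte markers, 2 were tested, of which *cd68* (0.88) was called higher and *cd14* (0.20) was not called. *cd3e* and *itgam* were not well above background on any array. The summed signal of the 2 tested leukocyte probes was 3652 to 4392 in the control channel and 4126 to 6169 in the HMB channel, higher with HMB on all 4 arrays. The endothelial markers *pecam1*, *cdh5*, *vwf* and *kdr* were not well above background on any array, and *tek* was on 1. No probe on the arrays carried the symbol of *pax7*, *tnnt1*, *mymk*, *col1a1* or *ptprc*, so these markers could not be tested.

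Of 11 partners and substrates of the muscle ligases, 9 were tested, 1 was called higher and 4 lower, and the median was −0.10. Besides *des* and *acta1*, the membrane repair genes *dysf* and *cav3*, partners of *trim72*, both fell by 0.80 (SD 0.11 and 0.10, limma adjusted p = 3.61e-04 and 3.33e-04). *fhl2*, a LIM protein of the sarcomere, had a ratio of 0.56 ± 0.25 (SD, n = 4) and was called higher. The autophagy receptors *sqstm1* (0.17) and *nbr1* (−0.10), the dysbindin gene *dtnbp1* (0.06) and *pias4* (0.08) were not called.

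**Figure D3:**
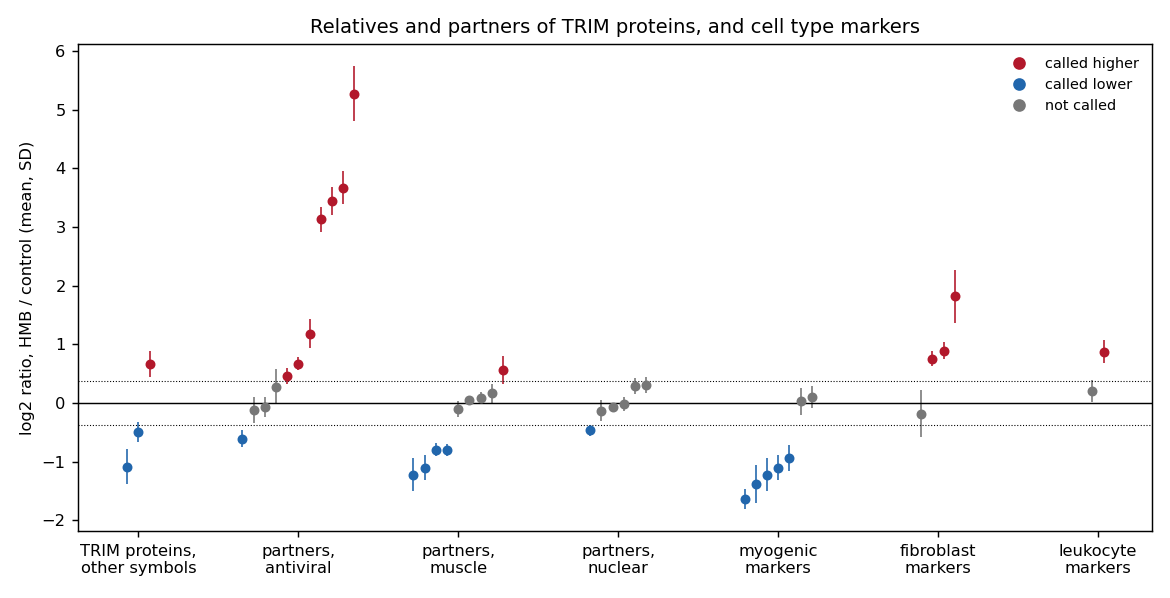
Mean log2 ratio of HMB over control with its SD over 4 arrays (y axis) for the tested genes of each list (x axis), with a point per gene colored by its call. In the list of antiviral partners, 7 of 11 points are called higher, up to 5.27, and in the list of myogenic markers, 5 of 7 are called lower, down to −1.63. Over all genes tested, 12.4% were called higher and 16.2% lower.

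Beside the antiviral and muscle genes, 15 members were tested, with a median of −0.14. None was called higher and 3 (20%) were called lower, against 12.4% and 16.2% over all genes tested. *trim24* encodes a bromodomain protein that reads histone marks and acts as a coregulator of nuclear receptors. Its log2 ratios were −0.65, −1.02, −1.04 and −0.66, with a mean of −0.84 ± 0.22 (SD, n = 4; FC 1.79 toward lower expression, limma adjusted p = 9.28e-04). The signal was 212 to 325 in the control channel and 105 to 158 in the HMB channel. The related *trim33*, which modifies *smad4*, was at −0.14 ± 0.08 (SD, n = 4; limma adjusted p = 0.128) and a 95% confidence interval from −0.30 to 0.02. Of 8 partners of the nuclear members, 6 were tested, 1 was called lower (*cbx1*, a heterochromatin protein, −0.47 ± 0.09, SD) and 0 were called higher. The ratios of *smad4* (0.30) and *cbx5* (0.29) were under the FC threshold.

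*trim13*, a ligase anchored in the endoplasmic reticulum, had log2 ratios of −0.55, −0.18, −0.75 and −0.58 (mean −0.51 ± 0.24, SD, n = 4; FC 1.43 toward lower expression, limma adjusted p = 0.0081). Its 2 adjacent probes, which share no base, were both called lower, with means of −0.44 and −0.59. Array 2 was nearest to 0 on both of them. *trim50*, a ligase known from the parietal cells of the stomach, had ratios of −0.27, −0.84, −0.85 and −0.42 (mean −0.59 ± 0.29, SD, n = 4; FC 1.51 toward lower expression, limma adjusted p = 0.00803). Its HMB channel was well above background on 1 array and its control channel on 4. The signals overlapped, with 29.15 to 55.15 in the control channel and 24.1 to 30.6 in the HMB channel. Neither *trim13* nor *trim50* was called with the methods' t-test, with treat, without the filter on dim probes or with either of the other background settings, where *trim50* was −0.04 with normexp.

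The 12 members not called had means from −0.38 to 0.37. For 6 of them, the 95% confidence interval lay wholly within an FC of 1.3 in either direction. Of the 12, 3 had an adjusted p under 0.05 but were below the FC threshold, namely *trim27*, *trim39* and *trim47*. *trim47* (0.37 ± 0.13, SD) and *trim59* (−0.38 ± 0.53, SD) lay just below the FC threshold, whereas the called genes nearest to it were *trim54* (−0.51), *trim13* (−0.51) and *trim38* (0.57). The arrays disagreed most for *trim8*, a regulator of cytokine signaling, with 0.01, −1.21, 0.72 and 0.34. They also disagreed for *trim59*, with 0.13, −0.02, −1.01 and −0.62, where arrays 3 and 4 were low. Neither gene differed from 0 beyond this spread (limma adjusted p = 0.932 and 0.15).

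Several probes were tested for 6 members, and for *trim27* and *trim68* they differed. *trim27* encodes the RET finger protein, a ligase and transcriptional repressor. Its probe on the transcript ENSECAT00000020197 had log2 ratios of 0.02, 0.09, 0.05 and 0.00 (0.0050). A pair of adjacent probes on the transcript JL640422 were called lower, with means of −0.40 and −0.46. The JL640422 probes lay below the other probe on all 4 arrays, by a mean of 0.47 in size (−0.47 ± 0.06, SD, n = 4; exact two-sided sign-flip test p = 0.125, the smallest that 16 sign flips allow). Averaged over the probes, *trim27* was −0.28 and not called, and it was called lower when the median or the brightest probe was taken (−0.40 in both cases).

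*trim68* had 5 probes that start within 4 bases of each other, and 2 of them were tested. They are shown because they share 57 bases, in capitals, and yet had means of opposite sign.
*trim68*, first tested probe (ENSECAT00000008532, chr7:60277254-60277313, minus strand): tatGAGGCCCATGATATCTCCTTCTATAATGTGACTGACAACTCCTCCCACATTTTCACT
*trim68*, second tested probe (chr7:60277251-60277310, minus strand): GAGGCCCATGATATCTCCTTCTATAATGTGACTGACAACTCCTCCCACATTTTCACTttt
The first probe had log2 ratios of 0.00 (1.44e-04), −0.52, −0.00 (−0.0012) and −1.31, and the second had 0.38, −0.01, 0.25 and 0.39. Neither was called (limma adjusted p = 0.136 and 0.054). Signals were low, with 32.4 to 43.3 and 33.5 to 56.9 in the control channel, and the 3 probes between and beside them were well above background on at most 2 arrays. The gene mean of −0.10 ± 0.31 (SD, n = 4) therefore carries the disagreement of nearly identical probes. Both probes of *trim39* had the same sign, with −0.33 and −0.20, and neither was called.

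**Figure D4:**
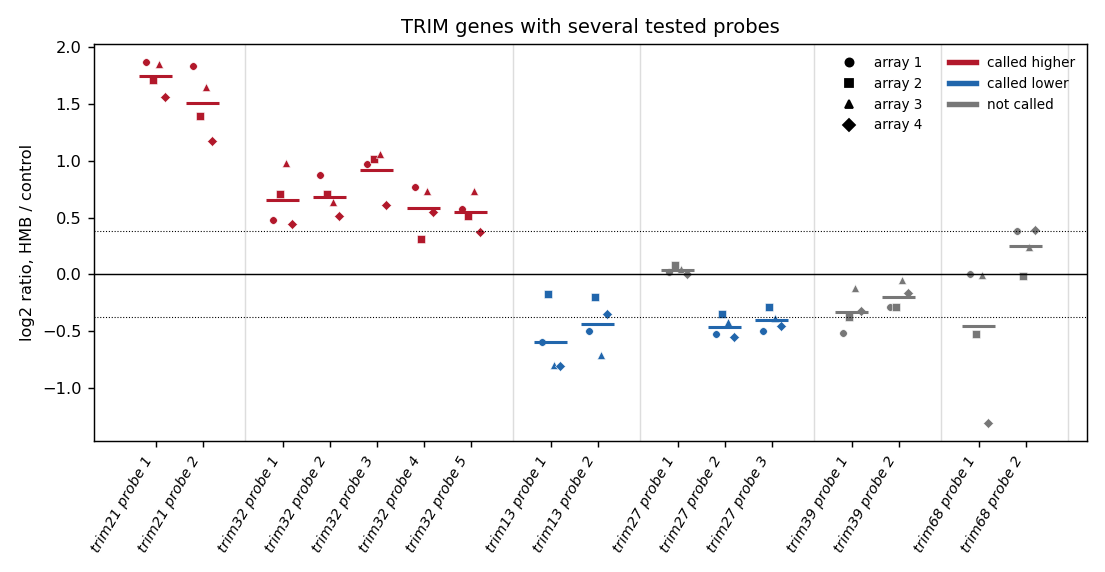
Log2 ratio of HMB over control (y axis) on each array for every tested probe of the 6 TRIM genes with several tested probes (x axis, in the order of position on the transcript), with the mean as a bar and the call as the color. For *trim27*, the first probe has a mean of 0.04 and the others −0.46 and −0.40, and the *trim68* probes have means of −0.46 and 0.25, whereas all *trim32* probes lie between 0.55 and 0.92.

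Some members lie near each other on chromosome 7. The probes of *trim21* and *trim68* were 228.6 kb apart, *trim34* lay 2004.8 kb beyond *trim68*, and *trim3* lay 965.3 kb beyond *trim34*. Of these 4 genes, *trim21* and *trim34* were called higher, *trim68* was not called, and *trim3* was not tested. On chromosome 11, the probe of *trim47* lay 13.1 kb from that of *trim65*.

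In total, 15 members were not tested. For 8 of them (*trim10*, *trim29*, *trim41*, *trim46*, *trim58*, *trim65*, *trim71* and *trim72*), no probe was well above background on any array. Further, *trim14*, *trim23* and *trim25* reached this level on 1 array, *trim15* and *trim35* on 2, and *trim3* and *trim36* on 3. *trim3*, an NHL repeat ligase known from neurons, and *trim36*, a microtubule-binding ligase, were above background in the HMB channel on 3 arrays each. Their ratios were above 0 on every array, with 1.02, 1.38, 0.35 and 0.57 for *trim3* and 0.83, 1.53, 1.01 and 1.60 for *trim36*. The probes of *trim3* and *trim36* were dim in the control channel, so their ratios are not exact. *trim35*, dim in both channels, had ratios below 0 on every array, with −1.11, −0.61, −0.05 and −0.34.

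TRIM proteins with other symbols moved in both directions. Of 7 such genes, 3 were tested. *mid1* and *mid2*, a pair of microtubule-binding paralogs, were at −0.49 ± 0.17 and 0.67 ± 0.22 (SD over 4 arrays) and were called lower and higher, respectively (limma adjusted p = 0.00451 and 0.00241). *trim63*, which encodes MuRF1 and is not a member here by the rule, was at −1.08 ± 0.29 (SD, n = 4; limma adjusted p = 7.96e-04) and was called lower, like *trim54* and *trim55*. *pml*, *mefv* and *triml1* were not well above background on any array, and *triml2* was on 1.

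A further 14 TRIM genes with 22 probes were named in the probe description without the symbol, among them *trim2* and *trim25*, which also have probes under their symbol. Of these genes, 5 were tested and none was called, against 12.4% called higher and 16.2% called lower over all genes tested. They were *trim11* (−0.20), *trim28*, the chromatin corepressor (0.04), *trim44* (−0.13), *trim77* (0.35) and *trim2* with both of its probes (−0.15). *trim77* had an adjusted p of 0.0477 from limma and an FC below the threshold. With these genes added, the counts of called genes remained 7 higher and 5 lower.

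Among the settings run, only scaling to the spike-in RNA turned the direction of a called member. With scaling to the spike-in RNA in place of lowess, the median of all genes moved from −0.06 to −0.67, and 2 of the 24 tested members were called higher (*trim34* and *trim21*) and 15 lower. On this scale, 3.65% of all genes tested were called higher and 78.1% lower. Here, *trim32* and *trim38* turned to −0.07 and −0.01. Relative to the median of all genes, *trim32* was at 0.60, *trim38* at 0.66, *trim56* at 0.74, *trim26* at 1.02 and *trim55* at −1.08. The lowess normalization of the deposited ratios removes any shift that most transcripts share, so the calls above are changes relative to the other transcripts on the array. The cause of the shift on the spike-in scale was not tested.

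**Figure D5:**
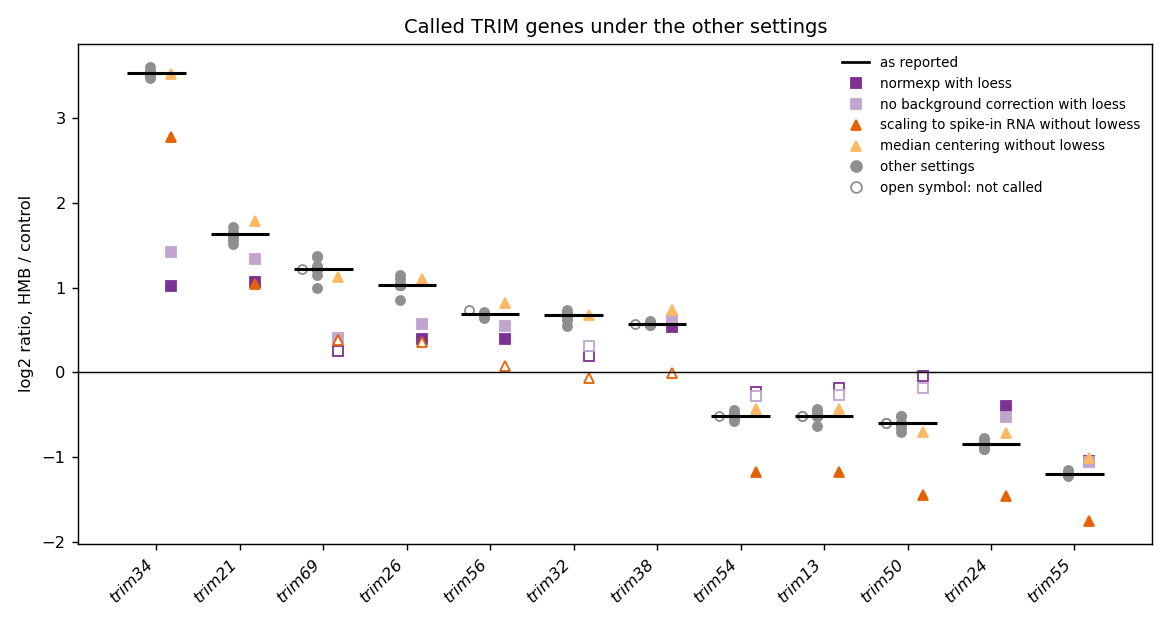
Mean log2 ratio of HMB over control (y axis) of the 12 called TRIM genes (x axis) as reported (black bar) and under every other setting (points, open where the gene was not called). Background correction by normexp brings *trim34* from 3.53 to 1.02, and scaling to the spike-in RNA brings *trim32* and *trim38* to −0.07 and −0.01, while *trim55* stays at −1.01 or below.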

How the data were processed

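Gene expression was measured on 4 two-color Agilent horse arrays (HMB, Cy5; control, Cy3), each with 45220 spots, of which 43803 were not controls. The authors deposited scanner files with intensity values and log10 ratios of Cy5 over Cy3, made by Feature Extraction (version 10.10.1.1 per the file headers) with background subtraction and linear and lowess normalization within each array, and a table of the same log10 ratios. In the deposited files, a surrogate stands in for any signal not above background, which compresses the ratios of dim probes or makes them bounds. A change of base turned the deposited log10 ratios to log2. Between 57.6% and 60.6% (Cy3) and between 55.2% and 61.8% (Cy5) of the spots other than controls exceeded background clearly, and Pearson's r across probes was 0.830 to 0.917 between pairs of arrays. The number of arrays limits the precision. No spot of a TRIM probe was saturated or marked as an outlier.

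Control spots and marked spots were left out, and spots of 1 probe were averaged. A probe entered the test if at least 1 channel was well above background on each array and at least 3 arrays gave a ratio. The mean over the tested probes of each gene symbol was tested against 0 in R 4.3.3 with limma 3.58.1 (an intercept with empirical Bayes moderation; with the packages data.table, version 1.17.8, and statmod, version 1.5.0), with Benjamini-Hochberg correction over all 14097 gene names, and probes were tested likewise over 24857 probes. On simulated data with 14097 genes, 67, 67 and 66 genes were changed by an FC of 1.5, 2 and 4. Of these, limma recovered 56.7%, 89.6% and 100%, with 10 false calls. Far fewer genes were changed there than were called in these data, and no dye effect was simulated, so these rates need not hold here.

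The TRIM genes, their groups and the lists of partners and markers were chosen with earlier results of these data known, and 1 leukocyte marker was left out of its list and is not reported here. All tested antiviral and muscle members, every other called member, the members nearest to the FC threshold and those with discordant probes are named. The untested members are named as well. *trim8*, *trim33*, *trim39* and the values of *trim3*, *trim35*, *trim36* and *trim65* were added after they were seen. Of the 40 transcript accessions of the members, 3 were found in a RefSeq table of a thoroughbred assembly, all 3 with the same symbol. For a channel that did not exceed background on any array, the fold is given against the lowest signal well above background, which is not a strict lower limit. Alternatives were the methods' t-test, treat, robust moderation with a trend, loess after normexp (offset 50) or after no background correction, median centering, scaling to spike-in RNA, a correction for probe GC content, other filters, marked spots kept, other ways of combining probes, the authors' table and leaving out each replicate. The genes named by the probe description alone were added after the data were seen. The protein, RT-qPCR and miRNA data of the study were not analysed here.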

Additional observations from a re-analysis of the deposited data

How the results depend on the processing

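Of the 12 called members, *trim21*, *trim24* and *trim55* kept their call under every alternative run, as did *trim34* under each that tested it (it did not enter the test with both channels above background), and 11 of the 12 uncalled members were called at least once, mostly with scaling to spike-in RNA. The authors' table holds the same ratios and no TRIM spot was marked, so it and the setting with marked spots kept could hardly change a call. The 7 higher calls became 6 with the methods' t-test, 6 with treat, 5 with normexp and 2 with scaling to spike-in RNA. They became 5 with both channels above background and 8 with median centering. Under these 6 settings in the same order, the share of all genes called higher moved from 12.4% to 8.09%, 5.81%, 7.28%, 3.65%, 11.8% and 19.3%. The 5 lower calls became 3 with the methods' t-test, 2 with treat, 2 with normexp, 2 without background correction and 15 with scaling to spike-in RNA. The share of all genes called lower was 16.2% and, under these 5 settings in the same order, 11.2%, 5.001%, 5.48%, 6.43% and 78.1%. The lower count changed less under the remaining settings. Of the probes, 12 were called higher, 8 with treat, 6 with normexp, 8 without background correction and 3 with scaling to spike-in RNA. Of the same probes, 8 were called lower, 5 with the methods' t-test, 2 with treat, 3 with normexp, 2 without background correction and 20 with scaling to spike-in RNA. The median of the antiviral members was 0.46 with normexp, 0.59 without background correction, 0.37 with scaling to spike-in RNA, 0.57 without the filter on dim probes and 0.86 with both channels above background, and that of the muscle members was −0.23, −0.28 and −1.17 with the first 3 of these settings. Fewer probes entered with the stricter filter and more with none, and in the other cases the cause was not tested. Median centering moved the median of all genes to 0.07 and scaling to spike-in RNA to −0.67.

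With scaling to spike-in RNA, *trim32* (−0.067), *trim38* (−0.0056), *trim42* (−0.70) and *trim47* (−0.21) changed sign. Among members not called, the sign also changed with normexp for *trim2* (0.048), *trim37* (0.012) and *trim68* (0.021), without background correction for *trim2* (0.0028), *trim68* (0.033) and *trim8* (0.10), and with the correction for GC content for *trim2* (0.0089). With median centering it changed for *trim2* (0.032), *trim33* (0.029), *trim37* (0.037), *trim64* (0.028) and *trim8* (0.080), and with both channels above background or the brightest probe for *trim68* (0.25 in both cases). Without 1 replicate at a time, the ratio of *trim2* lay between −0.047 and 0.035, that of *trim8* between −0.29 and 0.36 (without replicates 3 and 2), that of *trim37* between −0.18 and 0.0050 and that of *trim68* between −0.20 and 0.016. Leaving out each replicate in turn gave 7 to 8 genes called higher and 5 lower, 12 to 13 probes higher and 7 to 8 lower, and medians of 1.02 to 1.25 and of −0.57 to −0.44 for the antiviral and muscle members. Each array ratio sets both groups against each other, so the test of the ratios against 0 is itself paired by array, and no further replicate block was fitted.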
